A study of Mus musculus with 11 samples.

Results

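The accessible chromatin around 10 genes for noncollagenous proteins of the bone matrix was described in MPC2 cells, a mouse cell line of the bone lineage: the osteocalcin genes Bglap, Bglap2 and Bglap3, and Sparc, Postn, Mgp, Ogn, Bgn, Dcn and Lox. A region belonged to a gene when it overlapped the span from 20 kb upstream of the gene to 20 kb past its end. By this rule the 10 genes had 63 of the 94963 regions in the list. Each region was counted once, although 6 of them lay in the windows of all 3 osteocalcin genes. MPC2 is 1 conditionally immortalised clone of murine mesenchymal progenitors, which proliferates at a permissive temperature and forms osteocyte-like cells after 3 weeks in medium with beta-glycerophosphate and ascorbic acid. ATACseq, in which a transposase cuts open chromatin and leaves sequencing adapters behind, was performed on 11 cultures. There were 3 cultures of undifferentiated cells (MSC) with DMSO vehicle, 3 of MSC with FG-4592, 2 of osteocytes with vehicle and 3 of osteocytes with FG-4592. FG-4592 (Roxadustat), which inhibits the prolyl hydroxylases that mark HIF transcription factors for destruction, was present at 50 uM for 48 hours. The study asked how mimicked hypoxia changes open chromatin in both cell stages, but the list analysed here holds 1 level per region over all cultures. A level is the average log2 CPM, where CPM is the number of transposase cuts scaled to library size, and this reading was inferred from the values. MSC and osteocytes, and vehicle and FG-4592, therefore cannot be told apart by these levels, no level has a replicate error, and the depth of each culture was unknown.

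Bone matrix is mineralised collagen with a smaller amount of other secreted proteins. Osteocalcin is a small protein made by osteoblasts and osteocytes that binds calcium through glutamates carboxylated with vitamin K, and in mice it is encoded by neighbouring gene copies. SPARC (osteonectin) binds collagen and calcium, periostin joins collagen fibres to cells, and matrix Gla protein, which is vitamin K dependent like osteocalcin, inhibits calcification. Biglycan, decorin and osteoglycin are small leucine-rich repeat proteins that bind collagen fibrils. The osteoblast factor RUNX2 binds the core TGTGGT, which reads ACCACA on the opposite strand, and is a known activator of osteocalcin.

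The sequence before Bglap is shown with its counterpart at Bglap3, because both carried the same RUNX core in open chromatin of very different level. The first is the RefSeq promoter of Bglap, the 250 bases before the RefSeq start at chr3:88384467-88384716 on the minus strand. The second is the stretch of 249 bases at chr3:88372995-88373243, also on the minus strand, that aligned with it before Bglap3. Coordinates are of mm10 (GRCm38), both read 5′ to 3′, and capitals mark the RUNX core.
Bglap: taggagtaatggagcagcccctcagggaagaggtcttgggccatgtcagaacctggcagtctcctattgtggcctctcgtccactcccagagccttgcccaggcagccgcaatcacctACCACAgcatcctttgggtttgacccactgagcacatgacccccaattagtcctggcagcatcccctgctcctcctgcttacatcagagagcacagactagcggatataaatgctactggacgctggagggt
Bglap3 counterpart: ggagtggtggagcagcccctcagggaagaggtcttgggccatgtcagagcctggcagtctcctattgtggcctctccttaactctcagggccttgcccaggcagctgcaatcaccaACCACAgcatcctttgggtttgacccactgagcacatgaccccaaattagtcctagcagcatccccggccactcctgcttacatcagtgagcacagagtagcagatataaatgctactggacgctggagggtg
The aligned bases were identical at 231 of 249 positions (92.8%), and the RUNX core was shared. The table of RefSeq promoters covered 6 of the 10 genes and held no entry for Bglap2, Dcn, Lox or Mgp. The RefSeq gene starts used below come from a separate gene list that held all 10. Over the 1000 bases before each start, Bglap and Bglap2 aligned over 995 positions with 98.0% identity. The longest run of identical bases between the regions at Bglap and Bglap2 had 124 bases and is shown because a single read of 50 bases inside it matches both genes, although the mate of a read pair may lie outside. It lay from 440 to 317 bases upstream of Bglap, at chr3:88384781-88384904 on the minus strand.
Shared run: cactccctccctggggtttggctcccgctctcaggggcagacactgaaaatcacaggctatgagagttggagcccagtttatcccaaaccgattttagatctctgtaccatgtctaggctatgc
At Bglap2 the same letters stood at chr3:88379017-88379140.

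The markers of the cells were checked first. Of 9 genes of the mesenchymal and osteoblast lineage, 7 had a region within 1000 bp of an annotated start (Prrx1, Twist1, Runx2, Sp7, Col1a1, Pdgfrb and Dmp1), with levels from 4.06 to 6.13. Phex and Sost had none. Of 8 genes of other cell types, 1 had such a region, the endothelial gene Pecam1 with a level of 1.89.

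The 63 regions had a median level of 2.68, against 2.12 for the whole list, and a median width of 551 bp, against 460 bp. Their levels ran from 0.43 to 6.38. Since wider regions collect more cuts, each level was also set beside regions whose width differed by at most 10%, and 36 of the 63 were then above the median of their width class, whereas 40 were above the median of all regions. Per length, the median was 11.1 CPM per kb against 9.52 CPM per kb for the whole list. The 46 regions away from starts had a median level of 2.70, against 1.89 for all 73426 such regions. They were also wider, with medians of 549.5 and 408 bp, and per length the medians were 11.0 and 8.90 CPM per kb. The 17 regions within 1000 bp of any annotated start had a median level of 2.42, against 3.89 for all 21537 promoter regions, and medians of 13.1 and 17.1 CPM per kb. They were narrower than promoter regions in general, with a median of 567 bp against 867 bp. Of these 17, the 12 at a start of a member had a median level of 3.41 and 14.5 CPM per kb, and the 5 only at a start of another gene had a median level of 2.27 and 8.43 CPM per kb.

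**Figure D1:**
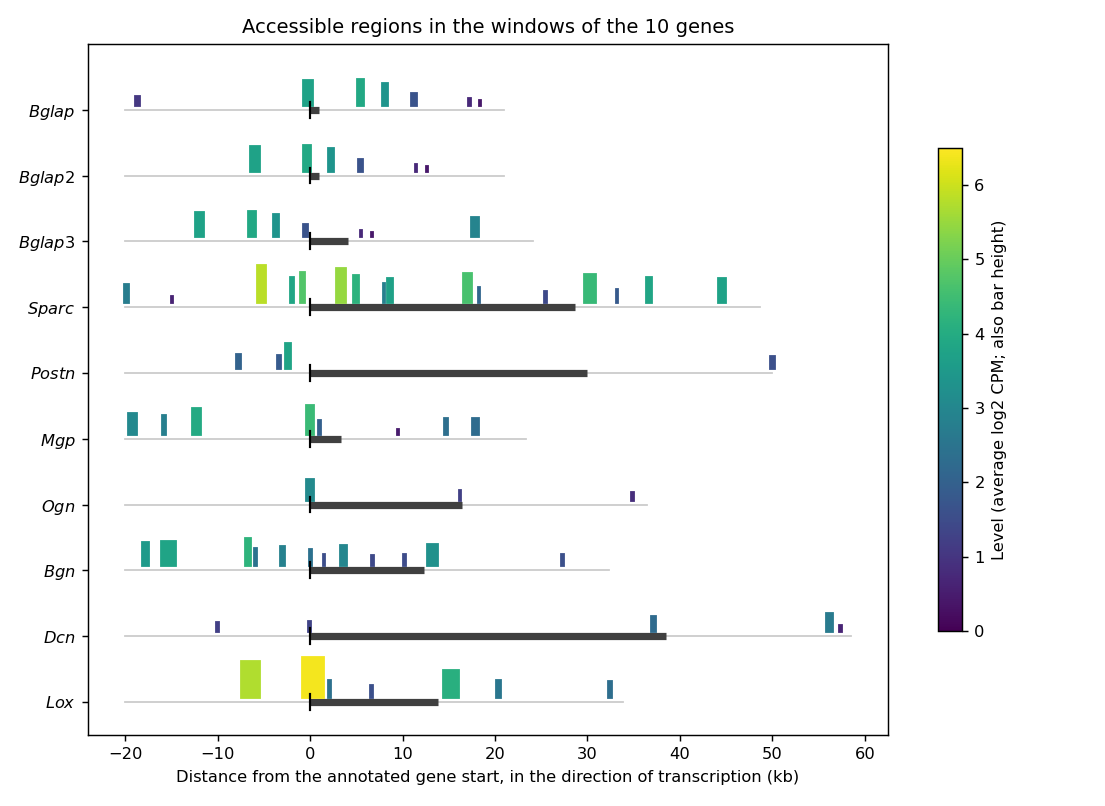
Each row is the window of 1 gene, drawn from 20 kb upstream of its annotated start to 20 kb past its end in the direction of transcription (distance in kb). Thick bars are gene bodies, and the height and colour of a block both give a region's level in log2 CPM. Sparc had the most regions with 16, and the window of Ogn had 3.

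**Figure D2:**
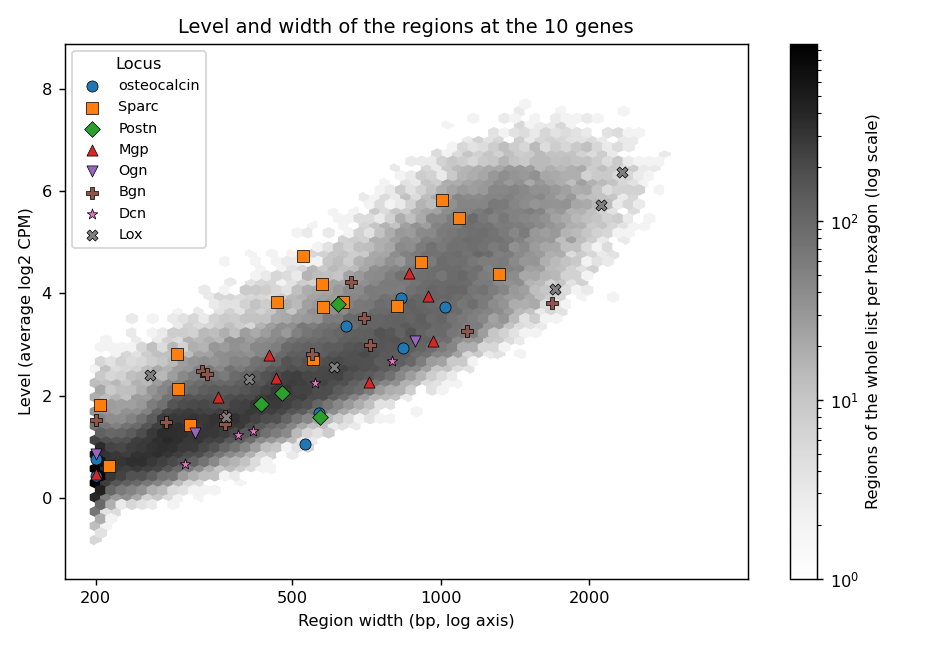
Level (average log2 CPM) against width (bp, log axis) for the 63 regions, drawn as points by locus, over the density of all 94963 regions in grey. Most Sparc regions lie on the upper side of the grey band for their width, and the osteocalcin region at 532 bp and 1.06 lies at its lower edge.

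The windows differed in how many regions they held. The window of Sparc held 16 regions, more than 99.2% of the coding genes whose length was within 20% of its own, and Bgn had 12 regions, more than 98.7%. Bglap with 7 regions, Bglap2 with 6 and Mgp with 8 were above 97.1%, 94.4% and 92.7% of genes of their length, and Bglap3 with 7 was above 86.6%. The 521 genes of the length of Bglap and Bglap2 had a median of 0 regions, so a few regions give a high percentile there. The classes of Mgp and Bglap3 had medians of 3. Lox with 7 was above 76.5%. Bglap, Bglap2 and Bglap3 share most of these regions, so their counts are not independent. Postn had 4 regions and Ogn 3, against medians of 5 and 4 for genes of their length, at percentiles of 36.4 and 28.9. Dcn had 5, the median of its class, at percentile 45.1, which counts only genes with fewer regions. The median percentile over the 10 genes was 89.7. For Bgn, which is on the X chromosome, the 91 coding genes of similar length on X had a median of 1 region, and Bgn exceeded all of them. Against coding genes of similar length on their own chromosome, Postn was at percentile 55.6, Dcn at 52.5, Ogn at 46.4 and Bglap3 at 77.8. The places of Postn and Ogn below the median thus depended on the genes they were set against, since their own chromosomes had medians of 3 for both.

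At the transcript starts, 9 of the 10 genes had a region within 1000 bp, and Postn had none at a GENCODE start. Among all 21911 coding genes the share was 64.1%. None of the 10 promoters was CpG-rich (GC content of at least 55% and a CpG ratio of at least 0.6 within 500 bp of the outermost GENCODE start), against 38.3% of all coding promoters. The open region at the start of Lox, which is wider, met both cutoffs. The RefSeq starts of Sparc and Postn lie outside these 500 bp. The CpG ratio, observed over expected, ran from 0.14 at Bglap2 to 0.54 at Lox. Among the 13522 coding genes whose promoter was not CpG-rich, 46.9% had a region at a start, and all 10 members belonged to this class. For each gene the start region with the highest level was then compared per length. Sparc with 40.5 CPM per kb and Lox with 35.6 CPM per kb were first, and a second, narrower start region of Sparc reached 50.4 CPM per kb. Next came Mgp with 24.4 CPM per kb, Bglap2 with 18.1 CPM per kb, Bgn with 16.0 CPM per kb, Bglap with 13.1 CPM per kb and Ogn with 9.51 CPM per kb. The lowest were Dcn with 5.96 CPM per kb and Bglap3 with 5.55 CPM per kb. Without a value per culture, neighbours in this order could not be tested against each other.

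**Figure D3:**
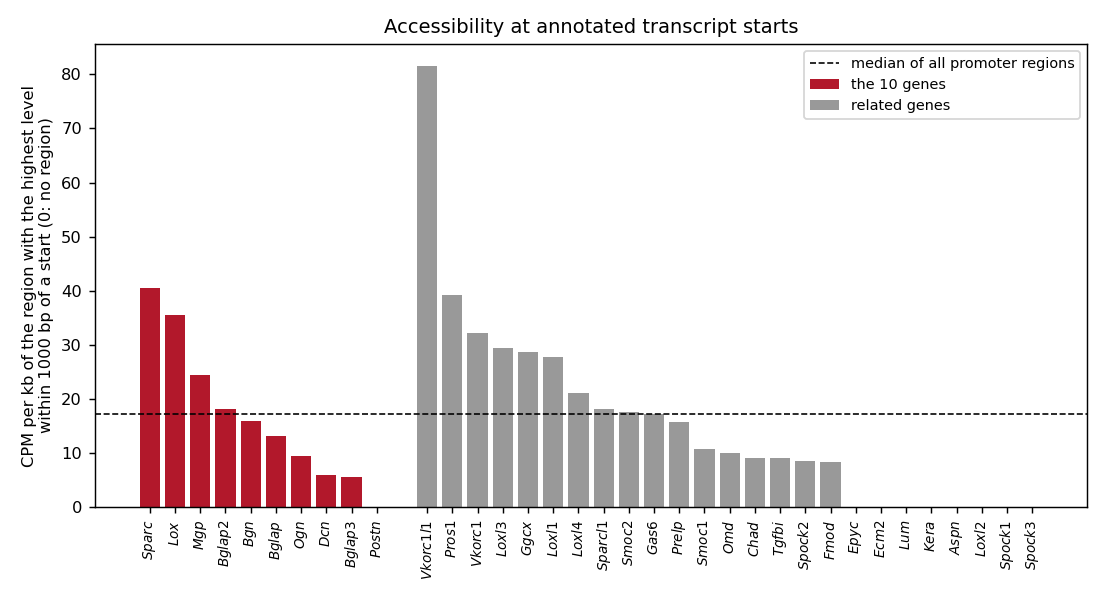
CPM per kb of the region with the highest level within 1000 bp of an annotated start, for the 10 genes in red and for 25 related genes in grey, with 0 where there was no region. The dashed line is the median of all promoter regions, 17.1 CPM per kb, and the starts of Sparc, Lox, Mgp and Bglap2 were above it.

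The osteocalcin locus on chromosome 3 held 8 regions in the 3 windows together. Bglap, Bglap2 and Bglap3 are all read from the minus strand. The region at the start of Bglap, chr3:88384161-88385183, reached from 719 bp upstream to 303 bp downstream of the start over exons 1 and 2 and had a level of 3.74. The region at Bglap2, chr3:88378590-88379419, reached from 720 bp upstream to 109 bp downstream, over exon 1, and had a level of 3.91, the highest of the locus. The region at Bglap3, chr3:88372943-88373509, lay wholly upstream, from 766 to 200 bp before the outermost annotated start, and had a level of 1.65. It was thus the lowest of the 3 start regions. Among regions of similar width it was at percentile 3.2, Bglap at 34.7 and Bglap2 at 72.0.

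Alignment placed the open stretch at Bglap3 on the counterpart of the Bglap promoter. The bases from 752 to 2 before Bglap aligned with the bases from 1000 to 252 before the outermost start of Bglap3, with 95.9% identity over 749 positions. The start of Bglap3 is thus annotated downstream of the place that corresponded to the start of Bglap. At Bglap and Bglap2 a RUNX core stood 134 bases upstream of the GENCODE start, and the one of Bglap is printed above. A second core stood at 605 and 609 bases upstream, and both lay inside the open regions. The aligned cores at Bglap3 stood at 384 and 853 bases upstream of its start, and the region there held only the nearer one. An inner start of a coding transcript of Bglap3, at chr3 position 88369831, had no base in any region within 500 bp.

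The other 5 osteocalcin regions lay between and around the genes. The region at chr3:88376084-88376727 with a level of 3.36 overlapped an exon of the pseudogene Gm21956, between Bglap2 and Bglap3. A region downstream of Bglap3 in Smg5 had a level of 2.94, and 2 regions of 200 bp, the minimum width of the list, near the start of Paqr6 had levels of 0.43 and 0.75. The region farthest upstream of Bglap, nearest to the start of Pmf1, had a level of 1.06 and was lower than all but 0.18% of regions of similar width.

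Repeated sequence was counted at these genes because the authors discarded reads of low mapping quality. Of the 4442 windows of 50 bases, the read length, in the 8 regions, 958 (21.6%) occurred again on the assembled chromosomes on either strand, and all 958 had a copy inside the locus itself. The share was 37.8% at Bglap, 32.5% at Bglap2, 25.1% at Bglap3, 24.7% at Gm21956 and 39.1% in 1 of the regions near Paqr6, and it was 0 in the other 3. In every hundredth region of the list, 950 in all, 0.878% of windows were repeated and 2.0% of the regions had more than 20% of their windows repeated. In the 55 regions of the other 7 genes the share was 0.522%. The start region of Bglap3, which had the lowest level, also had the smallest repeated share of the 3 start regions. These shares cover only bases inside regions. Farther upstream of Bglap3, outside its region, the share was 100% from 990 to 890 bases before the start. Whether discarded reads affected the levels at the locus was not tested.

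**Figure D4:**
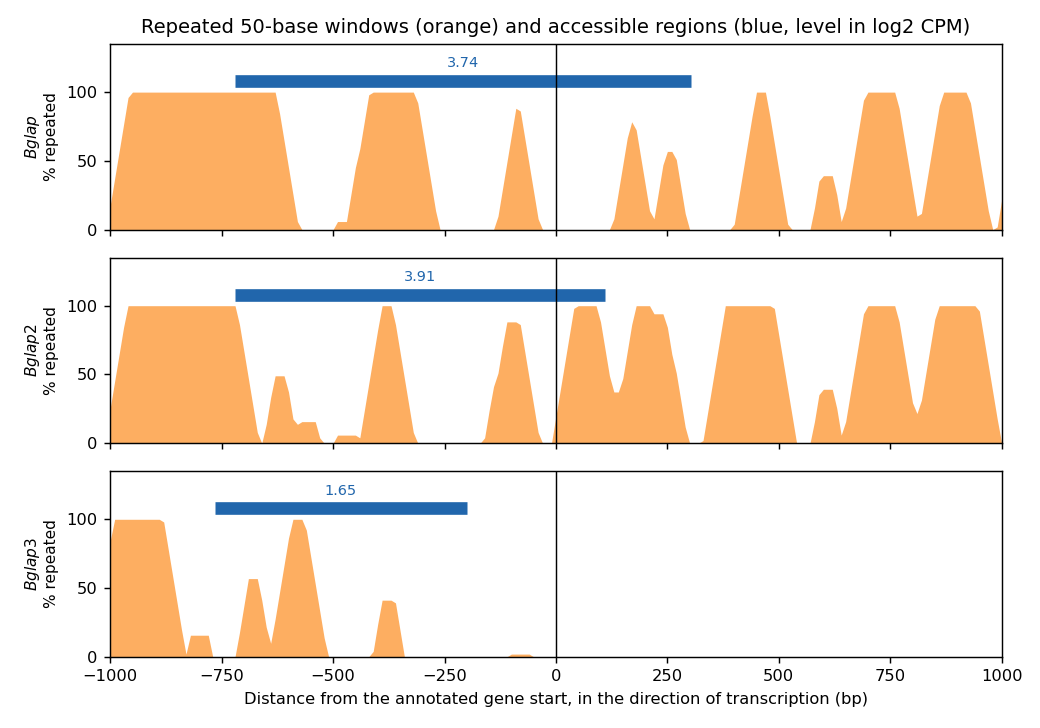
Share of repeated 50-base windows (orange, in %) by distance in bp from the annotated gene start, for windows centred within 25 bases of each position, with the regions of the locus as blue bars and their level in log2 CPM. Here only copies in or near the locus were counted, not those elsewhere on the chromosomes. The bars at Bglap and Bglap2 cover the start, and the bar at Bglap3 ends 200 bp before it.

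Sparc had the densest and, per length, the most accessible window of the 10. Its 16 regions covered 9788 bp with 272 CPM in all, or 27.8 CPM per kb, and their median level was 3.79. The highest was not at the start. It lay at chr11:55427901-55428905, centred 5220 bp upstream of the outermost annotated start, with a level of 5.83 and 56.5 CPM per kb, higher than 95.4% of regions of its width. The region over exon 1 of the transcript that begins nearest the RefSeq start, chr11:55419330-55420421, had a level of 5.47 and 40.5 CPM per kb. Between these, a narrow region of 526 bp at chr11:55423752-55424277, which is 831 bp upstream of the outermost start, had a level of 4.73 and 50.4 CPM per kb and was higher than 99.7% of regions of its width. Of the gene's regions, 7 lay in the gene body and had levels from 1.43 to 5.47.

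Stretches of 2 regions in the body of Sparc are shown for their clustered motifs. The region at chr11:55405692-55406605 covered exon 4, had a level of 4.61 and held 3 AP-1 sites (TGAGTCA or its opposite strand TGACTCA), the most of any of the 63 regions. AP-1 is the family of FOS and JUN factors. The 3 stretches are given on the plus strand of GRCm38, at chr11:55405795-55405841, chr11:55405941-55405987 and chr11:55406085-55406131, with the site in capitals.
Sparc AP-1 1: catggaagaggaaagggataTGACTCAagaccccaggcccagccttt
Sparc AP-1 2: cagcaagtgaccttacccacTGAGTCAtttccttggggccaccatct
Sparc AP-1 3: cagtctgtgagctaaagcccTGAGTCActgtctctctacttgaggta
A region in intron 1 at chr11:55414237-55414813, with a level of 3.73 and 577 bp wide, held 5 matches to the HIF core (ACGTG or GCGTG, on either strand), 2 of which overlap as CACGTG. The stretch with 4 of them, at chr11:55414344-55414519 on the plus strand, is shown with the matches in capitals because HIF factors are what FG-4592 stabilises.
Sparc HIF: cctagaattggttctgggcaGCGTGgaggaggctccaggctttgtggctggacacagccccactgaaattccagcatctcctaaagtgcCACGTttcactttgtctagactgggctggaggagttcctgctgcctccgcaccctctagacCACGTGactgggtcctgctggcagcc
A match is a description of the letters and was not tested as a binding site. The stretches with marked motifs, here and at the genes below, were picked for their matches. How often regions of the whole list hold as many matches, or the same combination, was not counted.

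Mgp had 8 regions with levels from 0.46 to 4.40. The highest lay over its start and exon 1 at chr6:136875432-136876296, with a level of 4.40 and 24.4 CPM per kb, and a weaker one of 1.98 followed in intron 1. Upstream, a region centred 12246 bp from the start at chr6:136887598-136888541 had a level of 3.95. Its middle is shown on the plus strand, chr6:136888054-136888312, because it joined HIF, RUNX and TEAD cores in 259 bases. TEAD factors bind GGAATG, which reads CATTCC on the opposite strand. Capitals mark the matches.
Mgp upstream: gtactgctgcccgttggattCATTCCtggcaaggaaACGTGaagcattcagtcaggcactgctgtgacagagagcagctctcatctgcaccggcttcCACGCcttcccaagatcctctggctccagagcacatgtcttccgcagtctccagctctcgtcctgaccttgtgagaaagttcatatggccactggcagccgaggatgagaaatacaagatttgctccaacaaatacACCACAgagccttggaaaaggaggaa
The 3 regions downstream of Mgp lay nearest to the start of Art4, a different gene, and the region of that start had a level of 2.27.

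The small leucine-rich repeat genes differed widely. Bgn, for biglycan, had 12 regions with levels from 1.43 to 4.21. Its start region, chrX:73483437-73483772, was 336 bp wide with a level of 2.42, higher than 92.7% of regions of its width. Per length it reached 16.0 CPM per kb, below the median of 17.1 CPM per kb for all promoter regions. The highest was centred 6760 bp upstream at chrX:73476514-73477171, with a level of 4.21 and 28.2 CPM per kb. This region held all of AP-1, TEAD and RUNX, and the stretches with these matches are given on the plus strand, at chrX:73476717-73476803 for TEAD and RUNX and at chrX:73477026-73477072 for AP-1.
Bgn TEAD and RUNX: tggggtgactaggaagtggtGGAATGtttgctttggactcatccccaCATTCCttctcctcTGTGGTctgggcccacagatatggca
Bgn AP-1: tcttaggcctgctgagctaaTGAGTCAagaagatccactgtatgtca
The widest region at Bgn, 1679 bp, had a level of 3.80 but lay nearer to the start of Haus7 and was higher than only 2.53% of regions of its width.

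Dcn, for decorin, had 5 regions and the lowest mean per length of the 10 windows, 7.11 CPM per kb over 2462 bp. The region at its start, chr10:97479345-97479760, had a level of 1.31 and was higher than 11.4% of regions of its width. The highest in the window, 2.68 at chr10:97535426-97536222, lay downstream and nearest to the start of Lum, the neighbouring gene for lumican, which itself had no region at a start. In intron 7 a region with a level of 2.24, chr10:97516453-97517008, held an AP-1 site between 2 RUNX cores, shown on the plus strand at chr10:97516592-97516662.
Dcn intron 7: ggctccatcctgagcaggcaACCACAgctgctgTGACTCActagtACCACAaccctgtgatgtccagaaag
Ogn, for osteoglycin, had 3 regions. The region over its start, chr13:49607595-49608481, had a level of 3.08 and 9.51 CPM per kb, and the others had 1.26 at exon 7 and 0.85 downstream. The RefSeq promoter of Ogn at chr13:49607765-49608014 on the plus strand held a TEAD core followed by a RUNX core within the open region.
Ogn: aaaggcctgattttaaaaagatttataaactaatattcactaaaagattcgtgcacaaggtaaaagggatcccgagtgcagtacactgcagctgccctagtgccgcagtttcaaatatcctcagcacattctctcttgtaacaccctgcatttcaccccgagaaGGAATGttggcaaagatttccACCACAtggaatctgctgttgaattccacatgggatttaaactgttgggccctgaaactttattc

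Postn, for periostin, had 4 regions, none of them in the gene body. The highest, chr3:54358445-54359064, had a level of 3.79 and 22.3 CPM per kb and was higher than 92.0% of regions of its width. It was centred 2355 bp upstream of the first GENCODE start. RefSeq placed the start farther upstream, at chr3 position 54359267, which lay within 1000 bp of this region, so that with RefSeq starts, an alternative chosen after seeing the data, 10 of 10 genes had a region at a start, against 59.0% of 20848 coding genes matched by symbol. The RefSeq promoter at chr3:54359017-54359266 on the plus strand is shown with the bases inside the region in capitals, since the region stopped within it.
Postn: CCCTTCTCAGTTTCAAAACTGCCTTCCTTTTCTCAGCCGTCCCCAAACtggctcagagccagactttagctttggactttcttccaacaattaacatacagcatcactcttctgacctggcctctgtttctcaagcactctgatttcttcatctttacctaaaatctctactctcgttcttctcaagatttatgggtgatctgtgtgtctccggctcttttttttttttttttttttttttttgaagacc
The remaining regions had levels of 2.05 and 1.83 upstream and 1.59 downstream. The last of these, chr3:54410838-54411407, was the region just inside the 20 kb limit, 19801 bp past the gene. The nearest region outside the limit, 20010 bp from Bgn with a level of 1.08, was not counted.

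Lox, for lysyl oxidase, which crosslinks collagen and elastin, had no entry among the RefSeq promoters. It had the region of the highest level among the 63. This region covered the start and exons 1 and 2 over 2335 bp, with a level of 6.38, above 98.9% of all regions, but above 70.0% of regions of its width. The next, 2110 bp wide and centred 6449 bp upstream, had a level of 5.72. The start region had a CpG ratio of 0.73, the highest of the 63 regions, and 10 matches to the HIF core. With a GC content of 56.0% it met both cutoffs for CpG-rich. The 500 bp on each side of the start did not, with 51.7% and 0.54. The 7 regions covered 7795 bp with 22.1 CPM per kb, the highest after Sparc. A region of 1708 bp past the gene end had a level of 4.09, higher than 5.44% of regions of similar width.

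Not all of these regions lay nearest to a member. For 48 of the 63 the nearest coding start was that of a member, and for 15 it was that of another gene. No such count was made for the windows of other coding genes. By position, 23 overlapped the body of the nearest member, 20 lay upstream and 20 downstream. In 4 of the 10 genes the region with the highest level in the window was at a start of the gene itself. The same share over all coding genes was not counted, so whether 4 of 10 is few or many is unknown. In the windows of Bglap and Bglap3 the highest was the region at the start of Bglap2.

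Taken over all 63 regions, the share with each of the 4 motifs differed from that of the list by less than its counting error. A RUNX core was in 44.4% of them (28 regions, 95% Wilson interval 32.8% to 56.7%) and in 42.7% of the list. An AP-1 site was in 19.0% (12 regions, 11.2% to 30.4%) and in 22.1% of the list. A TEAD core was in 36.5% (23 regions, 25.7% to 48.9%) against 31.5%, and the HIF core was in 36.5% (23 regions, 25.7% to 48.9%) against 46.2%. In the 17 regions at starts, the HIF core was in 47.1% (8 regions, 26.2% to 69.0%) against 72.3% of all promoter regions, and against 61.2% of promoter regions of similar width. An AP-1 site was in 0 of the 17 (upper Wilson bound 18.4%), against 16.5% of all promoter regions. RUNX was in 52.9% of the 17 (31.0% to 73.8%) against 39.4%, and TEAD in 41.2% against 34.2%. The member regions at starts also had a lower CpG ratio, a median of 0.28 against 0.56, and both HIF cores hold a CpG. The part of CpG content in the HIF share was not tested. Intervals cover counting error only, and neighbouring regions of 1 locus share sequence. Among the 32851 RefSeq promoters, the 250 bases before the start held a RUNX core in 14.0%, a TEAD core in 12.6%, the HIF core in 38.6% and an AP-1 site in 4.46%.

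**Figure D5:**
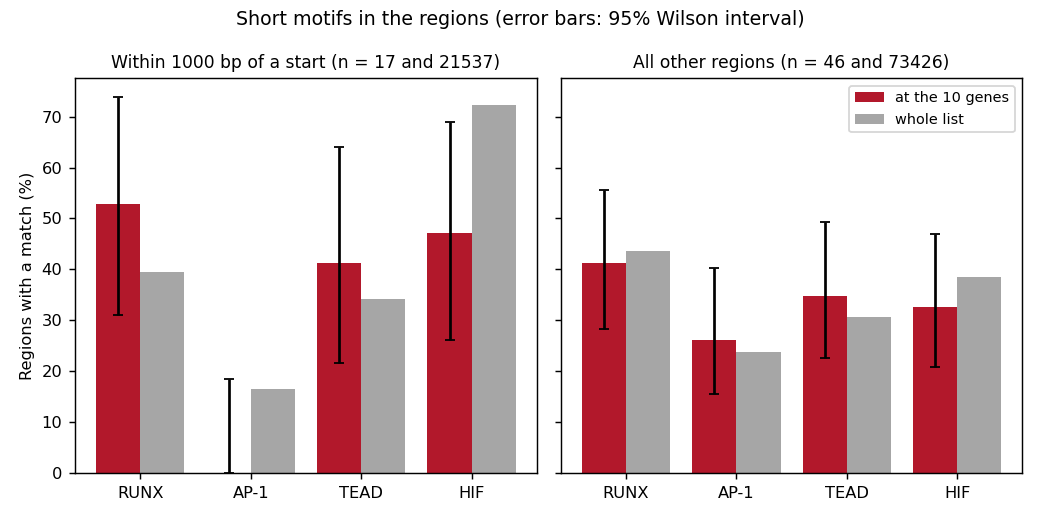
Share of regions (%) with a match to each motif, at the 10 genes in red with 95% Wilson intervals and in the whole list in grey, for regions within 1000 bp of a start (left) and all others (right). The HIF share at starts is 47.1% for the 10 genes and 72.3% for the list, and no AP-1 site is in the 17 start regions.

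The relatives of these genes and the enzymes that act on them were set beside them. Of 25 such genes, 17 had a region at a start and 22 had a region in the window, with a median of 6 regions. Among all coding genes 64.1% had a region at a start and 82.6% had one in the window, with a median of 4 regions, and 7 of the 25 had a CpG-rich promoter. All 5 genes of the vitamin K system had a region at a start, among them Ggcx, the carboxylase that modifies osteocalcin and matrix Gla protein, with a level of 4.74, and Vkorc1, which recycles the vitamin, with 4.96. Of the lysyl oxidase relatives 3 of 4 had one, of the SPARC family 4 of 6, and of the other small leucine-rich repeat genes 4 of 9. Tgfbi, the relative of periostin, had one with a level of 1.76. The 3 highest start regions were at Vkorc1l1 with 6.43, Loxl3 with 5.99 and Loxl1 with 5.76, and the 3 lowest at Chad with 1.36, Tgfbi with 1.76 and Fmod with 1.90. Per length, Vkorc1l1 reached 81.5 CPM per kb, above every one of the 10 genes. Kera, Spock1 and Spock3 had 0 regions in their windows. Omd, the osteomodulin gene next to Ogn on chromosome 13, had a start region with a level of 3.65 and 9.96 CPM per kb, close to the 9.51 CPM per kb at Ogn.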

How the data were processed

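ATACseq was analysed from 11 MPC2 cultures, whose groups were taken from their labels. The authors trimmed paired-end reads of 50 bases with Trim Galore, aligned them to mm10 with Bowtie2, removed duplicates with Picard 2.17.8 and discarded reads of low mapping quality. Peaks were called with MACS2 2.2.7.1, merged across samples and counted, and the authors used edgeR 3.24.3 for normalisation and tests. Tool versions are those in the submitters' processing notes. The deposited list held 1 log2 value per region, read as average log2 CPM from the values: 460 regions were below 0, and 2 to the power of the values summed to 1012761. It held no value per culture, so depth was unknown and no comparison between groups was made.

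Genes were those of GENCODE vM21 on GRCm38, and all 10 were named. CPM per kb is 2 to the power of the level, divided by the width. A promoter region lay within 1000 bp of any annotated start. Motifs were searched on both strands, and overlapping matches were counted separately. Repeated windows were counted over the assembled chromosomes, and promoters were aligned locally with Biopython 1.88. Python 3.11.15 with numpy 2.4.6 and pandas 2.3.3 was used, and the motif and repeat counts were tested on simulated sequence. The genes, gene lists and motifs were chosen with earlier results of these data known.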

Additional observations from a re-analysis of the deposited data

How the results depend on the processing

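No paired analysis was possible because every region has only 1 level, pooled over the cultures, and for the same reason no culture could be left out. Of 35 alternatives, 22 were counted as unchanged and 13 as moved. Unchanged was a loose label. It covered 45 regions with 10 kb on each side, against 63, and 7 genes with a start region of at least 500 bp, against 9. The number of regions at the 10 genes was 111 with 50 kb on each side, 23 in gene bodies alone and 35 when regions under 500 bp were dropped, which also raised the median level to 3.74. The number of genes with a region at a start was from 7 to 10, the latter with RefSeq starts, an alternative chosen after seeing the data, as was the comparison with genes of the same chromosome. Motif shares in the central 200 bp were 19.0% for RUNX (22.2% in the whole list), 9.52% for AP-1 (12.1%), 20.6% for TEAD (14.0%) and 17.5% for HIF (24.2%). With other words they were 22.2% for TGTGGTT (18.1% in the list), 11.1% for GGAATGT (11.0%), 23.8% for ACGTG alone (27.1%) and 27.0% for the looser AP-1 word TGANTCA (28.1%). In the 17 start regions, HIF in the central 200 bp was in 29.4% (13.3% to 53.1%), against 39.4% of all promoter regions. There ACGTG alone was in 23.5% (9.6% to 47.3%) against 45.7%. Both intervals hold the share of the list. Shares below those of the report come from searching fewer letters or rarer words, by construction. Repeated sequence in the osteocalcin regions was 31.2% with windows of 36 bases and 4.13% with windows of 100 bases. No depth per culture limits or supports any level.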
